A study of Mus musculus with 20 samples.

Results

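The complement genes described here were 9 of the 24062 genes measured by RNA sequencing in the microglia of mThy1-α-synuclein mice and their wild-type controls. They were taken by symbol: the C1q chains C1qa, C1qb and C1qc, the components C3 and C4b, the properdin gene Cfp, the anaphylatoxin receptors C3ar1 and C5ar1, and the integrin gene Itgam. All 9 passed the filter on low values at both ages. The mice were males of strain B6D2F1/J, in 4 groups: at 7 months 6 mThy1-α-synuclein mice and 4 wild-type controls, and at 10 months 5 of each genotype. The mThy1-α-synuclein mice were hemizygous for full-length wild-type human α-synuclein under the murine Thy-1 promoter, a neuronal promoter, with the transgene on the X chromosome, and the wild-type mice were their littermates without it. Each sample was the microglial fraction of the whole brain of 1 mouse, and no mice were pooled. The cells were selected with CD11b beads by the paper's methods, and by IBA1 in the sample labels. CD11b is the product of Itgam, so 1 member may be the antigen of the selection itself.

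Complement is a cascade of proteins that tags targets for uptake. C1q, assembled from A, B and C chains, binds a target and starts the classical pathway, in which C4 and C2 are cleaved and C3 is activated and deposited. Properdin stabilizes the enzyme that amplifies C3 cleavage in the alternative pathway. The small fragments C3a and C5a signal through C3ar1 and C5ar1, and complement receptor 3, the pair of Itgam and Itgb2, binds deposited C3 fragments on the target. In the brain, microglia are the main source of C1q, and this system is known for the removal of synapses by microglia in development and disease.

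The promoters of the 4 members that differed between the genotypes at either age are shown first, followed by those of C1qb and C1qc, the pair that varied most closely together between mice. Each is written 5′ to 3′ on the gene's own strand, from 250 bases before to 50 bases after the start given by RefSeq on GRCm38.p6. Capitals mark GAGGAA on either strand, a core bound by PU.1, the transcription factor that specifies macrophages and microglia. C1qa and C4b had no entry, so 7 of the 9 members were matched.
C3ar1 (chr6:122856108-122856407, minus strand): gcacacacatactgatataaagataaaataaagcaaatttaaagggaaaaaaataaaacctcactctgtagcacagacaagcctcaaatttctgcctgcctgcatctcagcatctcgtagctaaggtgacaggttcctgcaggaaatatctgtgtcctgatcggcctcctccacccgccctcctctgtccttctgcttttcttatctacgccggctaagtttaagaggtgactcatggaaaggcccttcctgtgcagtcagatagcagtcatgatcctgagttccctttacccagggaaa
C5ar1 (chr7:16259289-16259588, minus strand): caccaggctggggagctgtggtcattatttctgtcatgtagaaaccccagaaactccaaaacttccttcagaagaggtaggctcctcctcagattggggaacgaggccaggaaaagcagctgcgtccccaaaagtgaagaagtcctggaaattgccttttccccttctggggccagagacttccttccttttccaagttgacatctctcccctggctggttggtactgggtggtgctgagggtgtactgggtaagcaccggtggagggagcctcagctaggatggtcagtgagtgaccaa
Cfp (chrX:20931506-20931805, minus strand): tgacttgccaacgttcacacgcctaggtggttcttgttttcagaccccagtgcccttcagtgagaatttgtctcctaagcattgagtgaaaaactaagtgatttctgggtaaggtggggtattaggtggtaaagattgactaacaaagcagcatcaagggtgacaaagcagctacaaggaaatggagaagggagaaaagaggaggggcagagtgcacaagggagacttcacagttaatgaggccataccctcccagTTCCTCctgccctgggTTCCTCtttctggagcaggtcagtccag
Itgam (chr7:128062390-128062689, plus strand): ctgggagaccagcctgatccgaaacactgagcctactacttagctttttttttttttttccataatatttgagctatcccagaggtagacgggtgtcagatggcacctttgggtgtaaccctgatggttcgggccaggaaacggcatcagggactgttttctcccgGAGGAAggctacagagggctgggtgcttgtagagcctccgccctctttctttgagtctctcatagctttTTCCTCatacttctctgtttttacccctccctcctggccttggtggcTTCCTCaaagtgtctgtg
C1qb (chr4:136886151-136886450, minus strand): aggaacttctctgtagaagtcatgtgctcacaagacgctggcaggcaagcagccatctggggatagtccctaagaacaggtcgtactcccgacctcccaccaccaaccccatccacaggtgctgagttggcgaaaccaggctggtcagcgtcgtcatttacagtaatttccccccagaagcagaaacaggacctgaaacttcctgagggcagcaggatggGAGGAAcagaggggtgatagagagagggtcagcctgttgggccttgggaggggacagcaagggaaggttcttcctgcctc
C1qc (chr4:136892865-136893164, minus strand): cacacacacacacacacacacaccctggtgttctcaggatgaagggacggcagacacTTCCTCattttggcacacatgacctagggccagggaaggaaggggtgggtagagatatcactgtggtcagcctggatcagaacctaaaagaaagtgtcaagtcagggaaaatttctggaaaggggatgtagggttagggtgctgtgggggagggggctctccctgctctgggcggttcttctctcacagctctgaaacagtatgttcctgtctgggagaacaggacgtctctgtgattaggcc
GAGGAA was found 3 times in the window of Itgam, 2 times in that of Cfp and 1 time each in those of C1qb and C1qc, and it was in none of the windows of C3ar1, C5ar1 and C3. Of 32851 promoters of the same length, 28.28% held it. The letters TATAAA of the TATA box motif were present in 13.62% of all promoters. They were found near the 5′ end of the C3ar1 window, far from the start, and after the start in that of C3. TTGCNNAA, a form of the C/EBP motif present in 10.8%, was found in C3. The motifs were searched on both strands, and none contains another. These are descriptions of letters, not of binding.

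The labels and the purity of the samples were checked first. Thy1, the gene whose promoter drives the transgene, had 392 to 1298 normalized counts in the mThy1-α-synuclein mice at 7 months against 17.7 to 47.6 in wild-type mice, and 1117 to 1741 against 9.41 to 32.4 at 10 months. Between 33404096 and 77806399 reads per mouse were counted on genes. The 10 microglial markers summed to between 1571560 and 2071930 normalized counts in every mouse, and no marker of any cell type was at 0 in all mice of a group. Neutrophil markers were also abundant. At 7 months, 4 mice stood apart: their 8 neutrophil markers summed to 75440, 75168 and 45153 in mThy1-α-synuclein replicates 1, 2 and 3 and to 77153 in wild-type replicate 4, against 247842 to 442560 in the other 6 mice. At 10 months mThy1-α-synuclein replicates 2 and 4 were also under 100000, at 82886 and 73397. The members were therefore also compared without the 4 mice at 7 months and without the 2 mice at 10 months, a choice made after their values were seen. Fits of both ages together left out only the 4 mice at 7 months. At 7 months this left only mThy1-α-synuclein replicates 4 to 6 and wild-type replicates 1 to 3. In such samples, fewer cells of a type and less RNA per cell cannot be told apart.

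The members spanned a wide range of levels. In reads per kilobase of exon and scaled to depth (RPKM, computed here from the recovered reads), the wild-type mice at 7 months had 2493 ± 242 for C1qa, 2431 ± 296 for C1qb and 1192 ± 119 for C1qc (SD, n = 4). On the same scale Itgam had 661 ± 17.9, C3ar1 59.1 ± 2.77, C5ar1 30.4 ± 6.24, C3 20.6 ± 6.77, Cfp 8.79 ± 1.77 and C4b 4.15 ± 0.910. The C1q chains and Itgam thus lay far above the other members. With the longest transcript in place of all exons, C1qc had 1914 and Itgam 709.

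**Figure D1:**
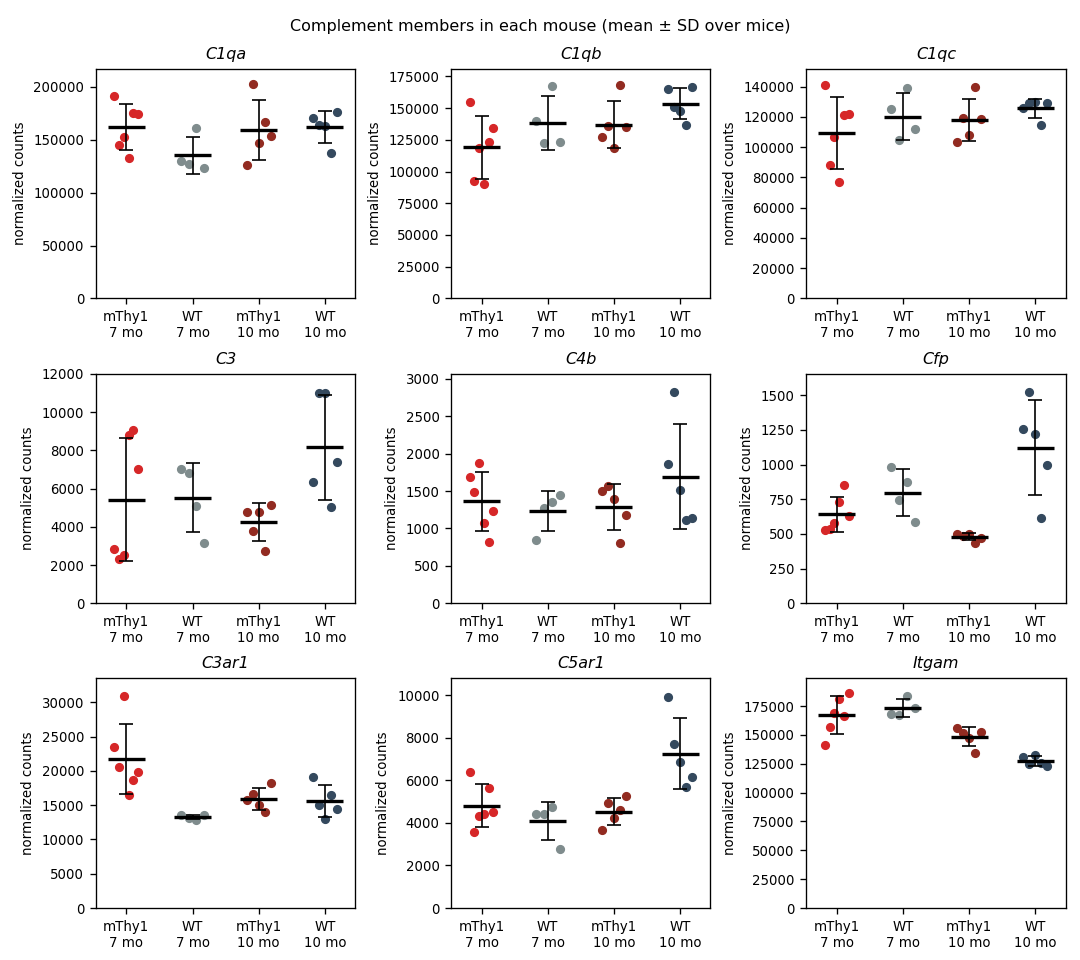
Normalized counts (linear axes from 0) of each member in each mouse of the 4 groups; each point is 1 mouse, and lines with bars are the mean ± SD. C3ar1 of all 6 mThy1-α-synuclein mice at 7 months lay above the 4 wild-type mice, and Cfp of all 5 mThy1-α-synuclein mice at 10 months lay between 437 and 498, below the wild-type mice.

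The genotypes were compared at each age with limma's moderated test on log2(normalized count + 1), and a gene with a Benjamini-Hochberg adjusted p under 0.05 over all genes tested is called a DEG. Fold changes are mThy1-α-synuclein over wild-type on that log2 scale. At 7 months 1 of the 9 members was a DEG, C3ar1, which was higher in mThy1-α-synuclein mice, beside 4.93% of the 13887 genes tested. At 10 months 3 of the 9 were DEGs, Cfp and C5ar1 lower and Itgam higher, beside 7.67% of 13627 genes. The median log2 fold change of the 9 was -0.056 at 7 months and -0.17 at 10 months, beside 0.00093 and -0.0026 over all genes tested. The plot of the fold changes sets both ages side by side.

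**Figure D2:**
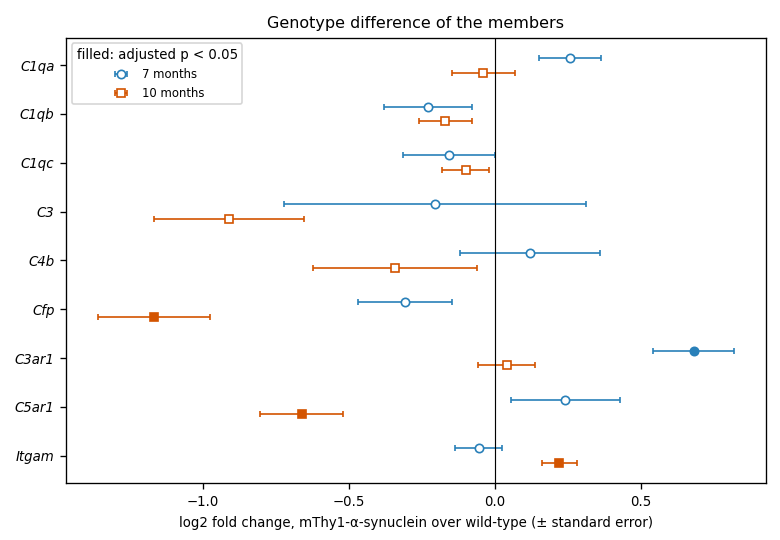
Log2 fold change (mThy1-α-synuclein over wild-type, horizontal axis) of each member at 7 months (circles) and 10 months (squares), with bars of 1 standard error; filled symbols are DEGs. C3ar1 (0.68) is the filled circle, and Cfp (-1.17), C5ar1 (-0.66) and Itgam (0.22) are the filled squares.

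C1qa, C1qb and C1qc, whose products form the recognition molecule of the classical pathway, lie side by side on chromosome 4. C1qa ranged from 132627 to 191076 normalized counts (median 163792) in the 6 mThy1-α-synuclein mice at 7 months and was 129941, 126954, 160925 and 123613 in the wild-type mice. The wild-type mice sat low apart from replicate 3, which overlapped the transgenic range. The log2 fold change was 0.26 (SE 0.11, adjusted p = 0.173), with an unadjusted p of 0.0278, so C1qa was not a DEG. Without the 4 mice with few neutrophil markers it was 0.20 (adjusted p = 0.492). At 10 months C1qa was 126310, 202622, 146701, 167008 and 153969 in mThy1-α-synuclein mice and 170184, 163761, 163467, 137511 and 176780 in wild-type mice. The ranges overlapped, with a log2 fold change of -0.040 (SE 0.11, adjusted p = 0.865), and -0.19 (adjusted p = 0.244) without the 2 mice with few neutrophil markers.

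C1qb at 7 months ranged from 90394 to 154512 (median 121178) in mThy1-α-synuclein mice and was 139895, 122348, 167379 and 123170 in wild-type mice. At 10 months it was 127316, 135695, 118744, 168514 and 135305 against 165286, 151094, 147735, 137042 and 166329. Most transgenic mice lay below the wild-type mean at both ages, yet the ranges overlapped. The log2 fold changes were -0.23 (SE 0.15, adjusted p = 0.414) and -0.17 (SE 0.090, adjusted p = 0.275). C1qc, with means of 109411 ± 23787 (SD, n = 6) and 120227 ± 15278 (n = 4) at 7 months and 117851 ± 14011 and 125788 ± 6368 (n = 5 each) at 10 months, did not pass the test either. Its log2 fold changes were -0.16 (adjusted p = 0.605) and -0.10 (adjusted p = 0.485). Without the mice with few neutrophil markers, the log2 fold changes of C1qb were -0.31 (adjusted p = 0.395) at 7 months and -0.27 (adjusted p = 0.0727) at 10 months. Those of C1qc were then -0.23 (adjusted p = 0.629) and -0.19 (adjusted p = 0.143).

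At 7 months the ratios of C1qa to each of the other chains did not overlap between the genotypes, whereas the levels did. The ratio of C1qa to C1qb within a mouse was 1.24, 1.57, 1.29, 1.47, 1.42 and 1.30 in the mThy1-α-synuclein mice at 7 months and 0.929, 1.04, 0.961 and 1.00 in the wild-type mice, with no overlap. At 10 months it was 0.992, 1.49, 1.24, 0.991 and 1.14 against 1.03, 1.08, 1.11, 1.00 and 1.06, and the genotypes overlapped. C1qa to C1qc, which rests on the same C1qa values, ran from 1.35 to 1.72 against 1.04 to 1.21 at 7 months and overlapped at 10 months. C1qc to C1qb overlapped at both ages, between 0.852 and 0.982 against 0.833 and 0.910 at 7 months. These ratios were chosen after their values were seen and are given without a test. The share of other gene pairs whose ratios do not overlap was not computed. Of single genes tested at 7 months, 7.53% did not overlap. Over the 20 mice, with each group's mean removed from the log2 values, C1qb and C1qc had a Pearson correlation of 0.95, C1qa and C1qb 0.75 and C1qa and C1qc 0.78. These correlations share the same libraries and scaling and are descriptions.

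**Figure D3:**
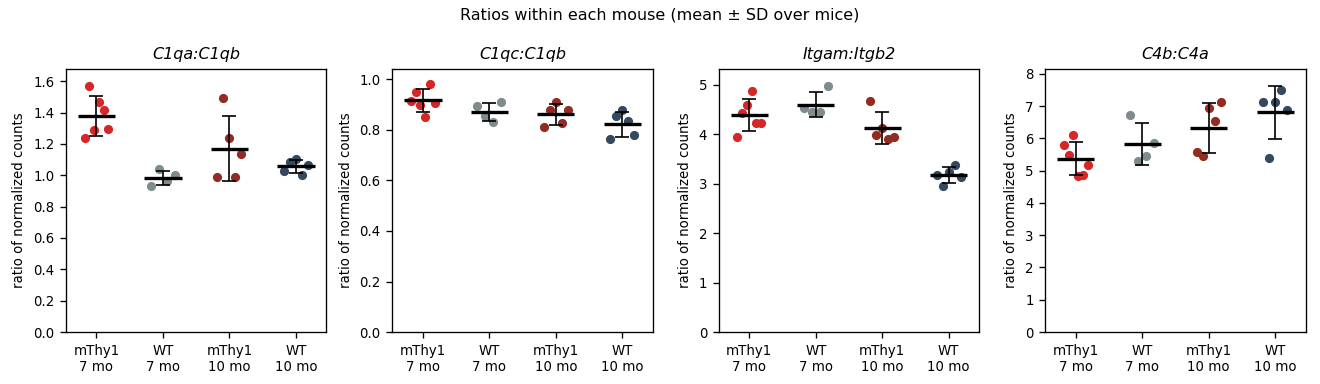
Ratios of normalized counts within each mouse (linear axes from 0) in the 4 groups; points are mice, and lines with bars are the mean ± SD. C1qa to C1qb was 1.24 to 1.57 in mThy1-α-synuclein mice at 7 months against 0.929 to 1.04 in wild-type mice, and Itgam to Itgb2 was 3.91 to 4.68 against 2.96 to 3.39 at 10 months.

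C3, the component on which all activation pathways converge, varied most among the mThy1-α-synuclein mice at 7 months, with an SD of 59.5% of the mean. At 7 months it was 2838, 2295, 2516, 8788, 9046 and 7035 normalized counts in mThy1-α-synuclein replicates 1 to 6 and 7031, 6822, 5083 and 3174 in wild-type replicates 1 to 4. The values fell into a low and a high set within the transgenic group, and the low values in both genotypes belonged to the 4 mice with few neutrophil markers. The log2 fold change was -0.21 (SE 0.52, adjusted p = 0.860), and without those 4 mice it was 0.40 (SE 0.13, adjusted p = 0.178). At 10 months C3 was 4785, 3786, 4755, 2735 and 5155 in mThy1-α-synuclein mice against 6341, 11007, 11000, 5033 and 7396 in wild-type mice. Only the highest transgenic mouse exceeded the lowest wild-type mouse, and the log2 fold change was -0.91 (SE 0.26, unadjusted p = 0.00599, adjusted p = 0.0644). The 2 lowest of the 10 values, 3786 and 2735, belonged to the 2 mice with few neutrophil markers. Without them the log2 fold change was -0.67 (SE 0.27, adjusted p = 0.204). C3 was thus not a DEG with limma, and with DESeq2 on the recovered reads its adjusted p was 0.00589. Without wild-type replicate 4 at 10 months, limma's adjusted p was 0.0234.

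C4b, cleaved in the classical pathway, had 1361 ± 394 (SD, n = 6) and 1230 ± 265 (n = 4) normalized counts at 7 months, and 1288 ± 309 and 1691 ± 704 (n = 5 each) at 10 months. Wild-type replicate 2 at 10 months was the highest of the 20 mice, at 2823. The log2 fold changes were 0.12 (adjusted p = 0.813) and -0.34 (adjusted p = 0.513), within the spread between mice. Without the mice with few neutrophil markers they were -0.15 (adjusted p = 0.779) and -0.24 (adjusted p = 0.704). C4a is a near-identical neighbour of C4b, so the split of reads between them is uncertain. The ratio of C4b to C4a was 4.82 to 6.10 against 5.29 to 6.71 at 7 months and overlapped at both ages.

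Cfp, which encodes properdin and lies on the X chromosome, was 498, 486, 498, 437 and 471 normalized counts in the mThy1-α-synuclein mice at 10 months. In the wild-type mice it was 1259, 1523, 1217, 613 and 999.7. The 5 transgenic values lay close together and below each wild-type value, of which replicate 4 was the lowest. The log2 fold change was -1.17 (SE 0.19, adjusted p = 0.00531), and without the 2 mice with few neutrophil markers it was -1.13 (SE 0.25, adjusted p = 0.0356). No overlap between the genotypes was seen in 7.27% of all genes tested at 10 months. At 7 months Cfp ranged from 528 to 853 (median 604) in mThy1-α-synuclein mice and was 981, 748, 875 and 583 in wild-type mice. The ranges overlapped, with a log2 fold change of -0.31 (SE 0.16, adjusted p = 0.291), and -0.24 (adjusted p = 0.505) without the 4 mice. Averaged over both ages in 1 fit of the 20 mice, Cfp was lower by a log2 fold change of -0.74 (SE 0.13, adjusted p = 0.00226), beside 7.18% of 14030 genes called in that fit. The difference between the ages was -0.86 (SE 0.27, adjusted p = 0.0580). It passed the cutoff without wild-type replicate 1 at 7 months (adjusted p = 0.0493) and without wild-type replicate 4 at 10 months (adjusted p = 0.00650).

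C3ar1, the receptor of C3a, ranged from 16473 to 30987 (median 20210) in the mThy1-α-synuclein mice at 7 months and was 13519, 13099, 12884 and 13505 in the wild-type mice. All 6 transgenic mice lay above the 4 wild-type mice, which differed little among themselves. Such separation was seen in 7.53% of all genes tested at 7 months. The log2 fold change was 0.68 (SE 0.14, adjusted p = 0.0143), and without the 4 mice with few neutrophil markers it was 0.47 (SE 0.093, adjusted p = 0.0135). The call was lost without wild-type replicate 1 (adjusted p = 0.0515) and without wild-type replicate 3 (adjusted p = 0.0561). At 10 months C3ar1 was 15729, 16664, 15057, 14013 and 18265 against 19045, 15032, 12969, 16458 and 14381, and the genotypes overlapped (log2 fold change 0.040, SE 0.098, adjusted p = 0.848, and 0.077, adjusted p = 0.734, without the 2 mice). The difference between the ages was -0.64 (SE 0.18, adjusted p = 0.0340), where 6.6% of 14030 genes were called. It was -0.43 (adjusted p = 0.114) without the 4 mice. The call was also lost when mThy1-α-synuclein replicate 1 or any of wild-type replicates 1 to 4 at 7 months was left out, or transgenic replicate 1, 3 or 4 or wild-type replicate 1 or 4 at 10 months (adjusted p up to 0.0682). The mean over both ages was 0.36 (SE 0.090, adjusted p = 0.0192), and 0.26 (adjusted p = 0.0599) without the 4 mice.

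C5ar1, the receptor of C5a, was 3651, 4917, 4232, 4600 and 5274 in the mThy1-α-synuclein mice at 10 months and 9918, 7714, 6839, 5675 and 6157 in the wild-type mice. Each transgenic mouse lay below each wild-type mouse, and wild-type replicate 1 was the highest. Separation of the genotypes was seen in 7.27% of all genes tested at 10 months. The log2 fold change was -0.66 (SE 0.14, adjusted p = 0.0194). The call was lost without wild-type replicate 2 (adjusted p = 0.0513), and without the 2 mice with few neutrophil markers, where the log2 fold change was -0.72 (SE 0.18, adjusted p = 0.0598). At 7 months C5ar1 ranged from 3581 to 6371 (median 4477) in mThy1-α-synuclein mice and was 4419, 4411, 4750 and 2759 in wild-type mice. The ranges overlapped, with a log2 fold change of 0.24 (SE 0.19, adjusted p = 0.493), and 0.097 (adjusted p = 0.726) without the 4 mice. The difference between the ages was -0.90 (SE 0.25, adjusted p = 0.0366), and without the 4 mice it was -0.76 (adjusted p = 0.0584). The call was also lost when mThy1-α-synuclein replicate 1 or 5 or wild-type replicate 1 or 4 at 7 months was left out, or transgenic replicate 1, 3 or 4 or wild-type replicate 1 or 2 at 10 months (adjusted p up to 0.0671).

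Itgam, the CD11b chain of complement receptor 3, was 156114, 151736, 147260, 134502 and 152919 in the mThy1-α-synuclein mice at 10 months and 130858, 125064, 132569, 125307 and 122897 in the wild-type mice. The genotypes did not overlap, but the nearest mice were close. The log2 fold change was 0.22 (SE 0.061, adjusted p = 0.0408), and the call was lost in 12 of 22 alternatives, with adjusted p up to 0.0943. Without the 2 mice with few neutrophil markers it was 0.26 (adjusted p = 0.0398). The call held when mThy1-α-synuclein replicate 4 was left out, and was lost when any of the other 9 mice was left out. At 7 months Itgam was 167022 ± 16335 (SD, n = 6) against 173030 ± 7729 (n = 4), and the ranges overlapped (log2 fold change -0.056, adjusted p = 0.730, and 0.043, adjusted p = 0.872, without the 4 mice). The difference between the ages was 0.28 (SE 0.099, adjusted p = 0.0930). Itgb2, the CD18 partner of Itgam, at 10 months was 36072 ± 2294 in the transgenic and 40105 ± 2065 in the wild-type group (SD, n = 5 each) and was not a DEG (log2 fold change -0.15, adjusted p = 0.162). The ratio of Itgam to Itgb2 within a mouse was 4.68, 3.99, 4.12, 3.91 and 3.95 against 3.18, 2.96, 3.23, 3.39 and 3.14, with no overlap. It was not tested and has no share over other gene pairs beside it. Of single genes tested at 10 months, 7.27% did not overlap. At 7 months the ratio of Itgam to Itgb2 was 3.94 to 4.88 against 4.44 to 4.97 and overlapped. In the annotation, Itgam overlaps a gene on the same strand, Gm49368, and how reads of both were counted is not given in the sources used here.

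Markers of other myeloid cells were lower in the group in which Cfp and C5ar1 were lower. At 10 months all 6 monocyte markers were below 0 in log2 fold change and 4 were DEGs, Plac8, Chil3, Fn1 and F10, and their sum was 14408 to 24377 in mThy1-α-synuclein against 24478 to 48180 in wild-type mice. All 7 border macrophage markers were below 0 and 4 were DEGs, Mrc1, Pf4, F13a1 and Cbr2, with sums of 18879 to 24280 against 25613 to 35529. All 8 neutrophil markers were below 0 and 2 were DEGs, Retnlg and Cxcr2, with sums of 73397 to 198812 against 158372 to 394259. Of the 10 microglial markers, 9 were above 0 and 3 were DEGs, Cx3cr1, Siglech and Sall1, all higher in the group in which Itgam was higher. Tmem119 was below 0 (log2 fold change -0.19, adjusted p = 0.189). These counts of DEGs stand beside 7.67% of all genes tested at 10 months. At 10 months mThy1-α-synuclein replicate 4 had the lowest monocyte sum (14408) and the lowest Cfp (437) of its group, and wild-type replicate 4 likewise (24478 and 613). The highest monocyte sum of each group at 10 months did not go with its highest Cfp. Transgenic replicate 5 had a sum of 24377 and Cfp of 471, and wild-type replicate 3 had 48180 and 1217. At 7 months the highest sum and the highest Cfp fell on the same mouse in both groups. They were 41576 and 853 in mThy1-α-synuclein replicate 5, and 35845 and 981 in wild-type replicate 1. The part of these cells in the results was not tested.

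**Figure D4:**
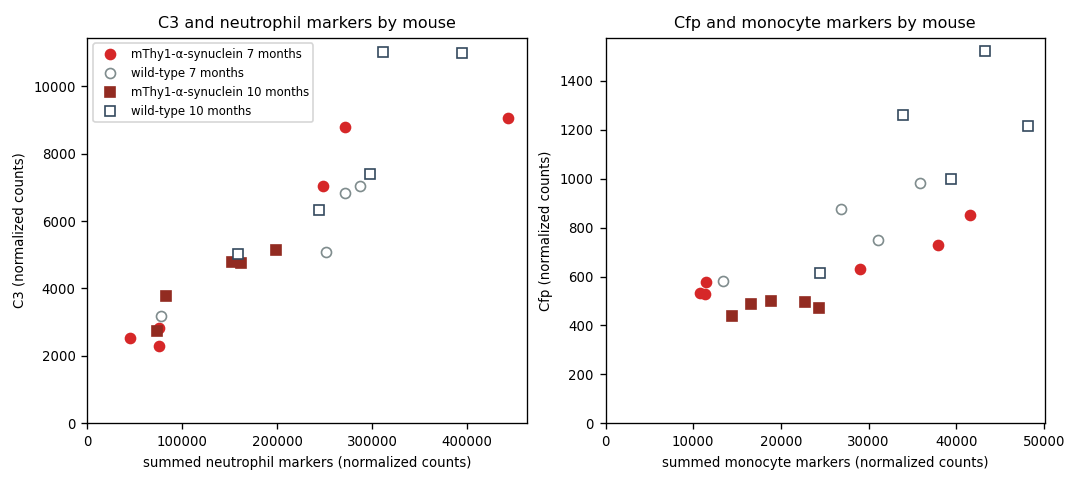
C3 against the summed neutrophil markers (left) and Cfp against the summed monocyte markers (right), in normalized counts on linear axes from 0, 1 point per mouse; filled symbols are mThy1-α-synuclein and open symbols wild-type mice, circles 7 and squares 10 months. C3 lies at 2295 to 3174 in the 4 mice at 7 months whose neutrophil sums are 45153 to 77153.

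At 7 months, where C3ar1 was higher, the summed markers of neurons, oligodendrocytes and endothelial cells were lower on average. The summed astrocyte markers were not, although 5 of the 7 were below 0 in log2 fold change. The neuronal markers had 3 DEGs, all lower, and summed to 272 to 529 in mThy1-α-synuclein against 511 to 1038 in wild-type mice. The oligodendrocyte markers had 3 DEGs, all lower, with sums of 7845 to 10167 against 12702 to 18093. The endothelial markers had 2 DEGs, both lower, with sums of 2417 to 4271 against 4669 to 5552. The astrocyte markers had 1 higher and 2 lower DEGs and a median log2 fold change of -0.71, with sums of 9602 to 12389 against 8946 to 11542. These counts of DEGs stand beside 4.93% of all genes tested at 7 months. The part of these cells in the results for C3ar1 and for the other complement genes at 7 months was not tested.

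The 4 groups were ordered after 1 scaling over all 20 mice, since the deposited values were scaled within each age. The mice of an age were processed together, so age and processing cannot be told apart and these levels are descriptions. C3ar1 was lowest in wild-type mice at 7 months, at 12743 ± 295 (SD, n = 4), apart from wild-type mice at 10 months at 16066 ± 2341 (n = 5). The latter overlapped with both transgenic groups, at 16471 ± 1648 and 20802 ± 4868. C5ar1 was highest in wild-type mice at 10 months, at 7488 ± 1709, apart from the next group at 4685 ± 643, and the other 3 groups overlapped. Itgam was lowest in wild-type mice at 10 months, at 131370 ± 4291, apart from the mThy1-α-synuclein mice of that age at 153411 ± 8522. For these 3 genes the wild-type mice of the 2 ages did not overlap, whereas the mThy1-α-synuclein mice of the 2 ages did. The share of all genes that do not overlap between the ages was not computed for either genotype. For the C1q chains, C3, C4b and Cfp, every group overlapped with its neighbour in the order.

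Of 46 other complement genes in the table, 29 were tested at 7 months, where 1 was higher and 1 lower, and 26 at 10 months, where 4 were higher and 3 lower. The 2 genes called at 7 months stand beside 4.93% of all genes tested, and the 7 called at 10 months beside 7.67%. The median log2 fold change of the listed genes tested was 0.014 and 0.021, beside 0.00093 and -0.0026 over all genes. Among the components, Masp1, a protease of the lectin pathway, was higher at both ages. It had 375 to 508 normalized counts against 185 to 332 at 7 months (log2 fold change 0.73, adjusted p = 0.0238). At 10 months it had 266 to 462 against 113 to 246 (log2 fold change 0.97, adjusted p = 0.0151). The ranges overlapped at neither age. Such separation was seen in 7.53% of all genes tested at 7 months and in 7.27% at 10 months. Without the mice with few neutrophil markers Masp1 was a DEG at 7 months (0.92, adjusted p = 0.0360) and at 10 months (1.16, adjusted p = 0.0157). C2, cleaved together with C4, was 62.2 to 117 against 121 to 245 at 10 months (log2 fold change -1.03, adjusted p = 0.0256). It was not a DEG at 7 months (log2 fold change -0.45, adjusted p = 0.352). In the annotation C2 overlaps Gm20547 on the same strand, and Masp1 overlaps Gm49514, Gm45338 and Rtp4 on the other strand. How shared reads were counted is not given. The proteases that accompany C1q, C1ra and C1s1, did not pass the test at either age, and C1s1 reached only 38.0 normalized counts in any mouse.

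Among the regulators, Csmd3 was 5870 to 10780 against 3129 to 6426 normalized counts at 10 months (log2 fold change 0.88, adjusted p = 0.0325), and the ranges overlapped slightly. At 7 months Csmd3 was not a DEG (log2 fold change 0.38, adjusted p = 0.147), but without the 4 mice it was (0.54, adjusted p = 0.0312). Csmd3 overlaps Gm16300 on the same strand, and how their reads were counted is not given. Vtn, which encodes vitronectin, a blocker of the terminal pathway, was lower at 7 months, with 25.4 to 78.2 against 82.7 to 247 normalized counts (log2 fold change -1.40, adjusted p = 0.0301). Without the 4 mice its log2 fold change was -1.59 (adjusted p = 0.114). It was not a DEG at 10 months (log2 fold change 0.71, adjusted p = 0.437). Cr1l, which encodes the membrane regulator Crry, was a DEG at neither age, but its difference between the ages was -0.45 (SE 0.10, adjusted p = 0.0115), and -0.38 (adjusted p = 0.0979) without the 4 mice.

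Among the receptors and binding proteins, Itgax, the CD11c chain of complement receptor 4, was 2952 to 4014 against 2773 to 3129 at 10 months, with overlap (log2 fold change 0.31, adjusted p = 0.0432). Without the 2 mice with few neutrophil markers its log2 fold change was 0.23 (adjusted p = 0.173). At 7 months Itgax was not a DEG (log2 fold change 0.66, adjusted p = 0.132). Its mean over both ages was 0.48 (adjusted p = 0.0221), and 0.42 (adjusted p = 0.0310) without the 4 mice. Cd93, first described as a C1q receptor, was 1903 to 2896 against 3536 to 4953 at 10 months (log2 fold change -0.87, adjusted p = 0.00233). At 7 months Cd93 was not a DEG (log2 fold change -0.52, adjusted p = 0.349). Its mean over both ages was -0.70 (adjusted p = 0.0181), and -0.74 (adjusted p = 0.0746) without the 4 mice. Calr and Lrp1, which encode calreticulin and its partner in the uptake of C1q-coated targets, moved in opposite directions at 10 months. Calr was 60362 to 81806 against 91224 to 103956 (log2 fold change -0.47, adjusted p = 0.00393), and Lrp1 was 47724 to 67053 against 33359 to 45489 (log2 fold change 0.53, adjusted p = 0.00713). Their differences between the ages were -0.61 (adjusted p = 0.00199) and 0.65 (adjusted p = 0.0474). Without the 4 mice they were -0.60 (adjusted p = 0.0162) and 0.56 (adjusted p = 0.0877).

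**Figure D5:**
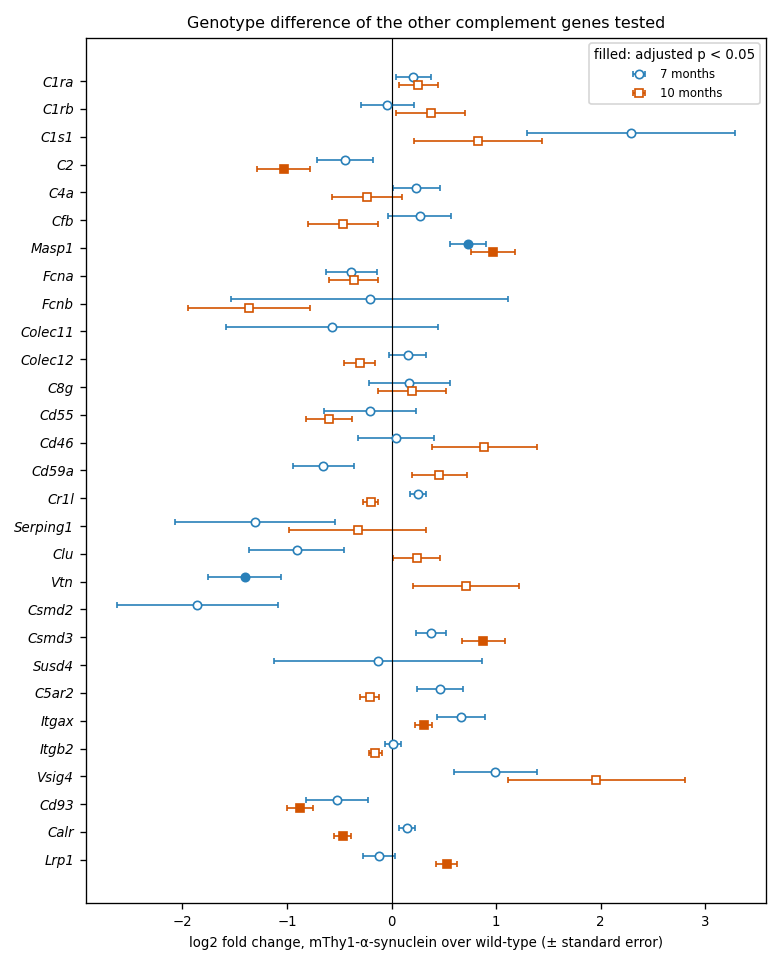
Log2 fold change (mThy1-α-synuclein over wild-type, horizontal axis) of the other complement genes tested, at 7 months (circles) and 10 months (squares), with bars of 1 standard error; filled symbols are DEGs. Masp1 is filled at both ages (0.73 and 0.97), and Calr (-0.47) and Lrp1 (0.53) lie on opposite sides of 0 at 10 months.

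The genes outside these lists that varied most like each member were found over the 20 mice, with each group's mean removed, among 10885 genes. For C3 they were Tuba4a (Pearson r = 0.97), Cyfip2 (0.97) and Atp8b4 (0.96). For Cfp they were Ccnd3 (0.92), AB124611 (0.88) and Slfn2 (0.86), and for C3ar1 Adam10 (0.91), Galc (0.90) and Arl8b (0.90). C4b was most like Usp36 (0.89), C5ar1 like Ptpn6 (0.86), Itgam like Nacc2 (0.83) and the mean of the C1q chains like Ninj1 (0.83). Among the members outside C1q, C3 and Cfp had the highest correlation (0.71), and C3 and C3ar1 the lowest (-0.56). The values share libraries and scaling, and the correlations were not repeated without the mice with few neutrophil markers.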

How the data were processed

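RNA of the microglial fraction was sequenced in 20 mice. The authors trimmed the reads (Trim Galore 0.6.7), mapped them to mm10 (HISAT2 2.2.1) and counted them per gene (featureCounts); annotation and strand setting are not given in the sources used here. The deposited signal values are these counts divided by a DESeq2 size factor per mouse, found here to have been computed within each age. All values came out as whole reads within 0.1 once divided by the step of a mouse. The step closest to 1 was 1.00341, in mThy1-α-synuclein replicate 5 at 10 months. Genes reaching 10 in 4 or more mice (7 months) or in 5 or more (10 months) were tested with limma 3.58.1 on log2(value + 1), with trend and robust estimation, and Benjamini-Hochberg adjustment over all genes (cutoff 0.05). The difference between the ages and the mean of both came from 1 fit of 20 mice. edgeR 4.0.16 and DESeq2 1.42.0 ran on recovered reads as alternatives, and the scripts were tested on simulated data. The rule for named genes took the 9 members, the listed complement genes past the cutoff, the partners Itgb2, C4a, C1s1 and C1ra, the 3 genes most like each member and markers that moved beside a result. Thy1 was named after its values were seen. One gene of the lists is not reported here. The members and lists were chosen with earlier results of these data known. Gene positions and lengths came from GENCODE on GRCm38, and promoters from RefSeq. Mice of a group differed by far more than counting noise (chi-square per gene of at least 24.7 between any pair).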

Additional observations from a re-analysis of the deposited data

Results flagged for a closer look

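The genotype difference changed between 7 and 10 months in 5 complement genes by limma's test of the difference itself: C3ar1 (log2 difference -0.64), C5ar1 (-0.90), Cr1l (-0.45), Calr (-0.61) and Lrp1 (0.65). Without the 4 mice at 7 months with few neutrophil markers only the call of Calr remained (adjusted p = 0.0162), and the adjusted p was 0.114 for C3ar1, 0.0584 for C5ar1, 0.0979 for Cr1l and 0.0877 for Lrp1. That smaller fit kept the 2 mice at 10 months with few neutrophil markers. Its calls over all genes fell as well, from 926 to 439. The mice of an age were processed together, so age and processing cannot be told apart.

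A single mouse stood far from the rest of its group in 6 of 88 sets of values, where chance gives about 1 in 20. C1qa was 160925 in wild-type replicate 3 at 7 months, above the other 3 mice, and C1qc was 114709 in wild-type replicate 4 at 10 months, below the rest. C5ar1 was 2759 and C1s1 20.2 in wild-type replicate 4 at 7 months, the mouse with few neutrophil markers, of which C5ar1 lay below and C1s1 above its group. C4a was 126 in wild-type replicate 1 at 7 months, and Cr1l was 5233 in mThy1-α-synuclein replicate 4 at 7 months, both below their groups.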

How the results depend on the processing

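Of 954 member fold changes under an alternative, 889 kept their direction and their side of the cutoff, 43 lost a call, 8 gained a call and 14 changed sign, none of them a DEG. Cfp at 10 months was called in all 22 alternatives (adjusted p up to 0.0356).

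The count of members called at 7 months (1) fell to 0 without trend and robust estimation (C3ar1 adjusted p = 0.0504) and was 0 to 1 with a mouse left out. At 10 months (3) it was 1 to 3 with a mouse left out, 4 with DESeq2 and with limma-voom, and 2 without the 2 mice with few neutrophil markers. Between the ages (2) it was 3 with edgeR and DESeq2, 1 without trend and robust estimation, 0 to 2 with a mouse left out and 0 without the 4 mice at 7 months with few neutrophil markers, and for the mean of both ages (2) it was 1 without those 4 mice. The other complement genes called at 7 months (2) were 4 with DESeq2, 0 without trend and robust estimation and 0 to 3 with a mouse left out. At 10 months (7) they were 5 without trend and robust estimation and 4 to 6 with a mouse left out, and between the ages (3) they were 6 with DESeq2 and 1 without the 4 mice. Over all genes, calls at 7 months, at 10 months and between the ages were 684, 1045 and 926. They were 1166, 1697 and 1334 with DESeq2, and 408, 565 and 805 without trend and robust estimation. With a mouse left out they ran from 280 to 860, 489 to 1232 and 623 to 1100. Without the mice with few neutrophil markers they were 330, 717 and 439, where the last count left out only the 4 mice at 7 months. Limma-voom called 1333 at 10 months and edgeR 954 between the ages. For the mean of both ages they were 1007, and 504 without the 4 mice. The cause of these shifts was not tested.

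Equal replicate numbers did not pair the mice: deviations from the group means correlated between -0.13 and 0.10, and 1 of 9 mice correlated best with its own number. With the replicate number as a block, 0 members were called between the ages (C3ar1 adjusted p = 0.0546, C5ar1 0.135), 5 other complement genes at 10 months, and at 10 months the adjusted p was 0.0516 for C5ar1, 0.0943 for Itgam and 0.0132 for C3. Over all genes, the block left 481 calls between the ages and 916 at 10 months.

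Direction changed without the 4 mice for C3 (0.40), C4b (-0.15) and Itgam (0.043) at 7 months. With a mouse left out, C4b at 7 months ran from -0.050 to 0.26, C1qa at 10 months from -0.13 to 0.040, C3ar1 at 10 months from -0.023 to 0.12, and the difference between the ages from -0.037 to 0.14 for C1qb and from -0.038 to 0.14 for C1qc. C3 at 10 months was called with DESeq2 (adjusted p = 0.00589), limma-voom (0.0481) and without wild-type replicate 4 (0.0234). The difference between the ages of Cfp was called with edgeR (0.0393) and DESeq2 (0.0102).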
